A study of Mus musculus with 55 samples.

Results

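A set of 10 genes commonly used as markers of thalamic neurons, Tcf7l2, Prkcd, Plcb4, Rora, Rorb, Tnnt1, Ramp3, Synpo2, Zic1 and Lef1, was followed through punches of the ventral dentate gyrus, a part of the hippocampus that lies close to the thalamus. They were chosen by name out of 45318 listed genes, with earlier results of these mice known. All 10 passed the low-count filter, which left 18283 genes in 54 mice. The RNA came from single male C57BL/6J mice raised from weaning in standard housing (SH) or in an enriched environment (EE) with running wheels and objects. Unstressed mice served as controls, and the others went through chronic social defeat stress (CSDS) by CD-1 aggressors and were classed as resilient (RES) or susceptible (SUS) by their social interaction ratio. The groups held 10 SH control, 7 SH RES, 10 SH SUS, 9 EE control, 9 EE RES and 9 EE SUS mice. A punch is a small core of tissue, so the cells it holds depend on where it was taken, and in such bulk RNA fewer cells of a type and less RNA per cell cannot be told apart.

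The thalamus relays signals to the cortex, mostly through glutamatergic neurons that carry the transporter Slc17a6. Tcf7l2 and Lef1 encode related DNA-binding proteins of the Wnt pathway, and Tcf7l2 is a selector of thalamic neuron identity. Rora and Rorb encode nuclear receptors that bind a shared DNA element, and Zic1 encodes a zinc finger factor. Plcb4 and Prkcd encode signalling enzymes downstream of receptors, phospholipase C beta 4 and protein kinase C delta. Ramp3 encodes a subunit that modifies receptors of the calcitonin family, Synpo2 an actin-binding protein and Tnnt1 the slow skeletal troponin T. Plcb4, Rora and Rorb are also expressed in neurons outside the thalamus, and Tcf7l2 in some glial cells.

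Among the 10 genes, Tcf7l2 and Lef1 are paralogs, as are Rora and Rorb. The bases upstream of 3 of them are shown because Rora followed Tcf7l2 closely across mice and its paralog Rorb did so least. Each runs over 250 bases up to the annotated start in RefSeq (GRCm38.p6), chr19:55741560-55741809 on the plus strand, chr9:68653536-68653785 on the plus strand and chr19:19111197-19111446 on the minus strand, 5′ to 3′, with CpG dinucleotides in capitals.
Tcf7l2: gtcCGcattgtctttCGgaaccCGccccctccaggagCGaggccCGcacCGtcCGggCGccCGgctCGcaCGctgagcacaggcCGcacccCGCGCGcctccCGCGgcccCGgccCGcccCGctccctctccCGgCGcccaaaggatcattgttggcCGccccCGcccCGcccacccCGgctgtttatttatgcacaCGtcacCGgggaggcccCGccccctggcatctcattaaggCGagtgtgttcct
Rora: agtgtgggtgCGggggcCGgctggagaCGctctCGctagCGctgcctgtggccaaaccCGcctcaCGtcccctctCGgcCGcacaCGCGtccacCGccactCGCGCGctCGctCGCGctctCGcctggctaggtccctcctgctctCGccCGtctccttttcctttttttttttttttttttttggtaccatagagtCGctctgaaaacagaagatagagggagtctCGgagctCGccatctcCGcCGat
Rorb: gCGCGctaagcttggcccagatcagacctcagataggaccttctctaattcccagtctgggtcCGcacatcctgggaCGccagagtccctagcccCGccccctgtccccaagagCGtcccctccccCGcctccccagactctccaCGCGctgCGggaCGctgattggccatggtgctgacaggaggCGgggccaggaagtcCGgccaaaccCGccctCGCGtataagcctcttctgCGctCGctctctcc
These windows held 30, 26 and 18 CpG dinucleotides, against a median of 6 over the same 250 bases of 32851 RefSeq promoters. The TCF/LEF letters CTTTGAT or CTTTGAA, searched on both strands, were in 0 of 17 windows of the 10 genes, which here run to 50 bases past the start, and in 8.65% of all 32851 windows. The letters TAGGTCA or TGGGTCA of the ROR element were likewise in 0 of the 17, and in 6.45% of all windows.

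The deposited counts of the reverse strand were used, with a median of 21514971 gene counts per mouse sequenced once (16760009 to 24426804) and 45872357 in EE control mouse 9, whose 2 runs were summed. Levels are given as CPM, counts scaled to the size of each library after TMM normalization. The dentate granule cell markers were all measured, with a summed level of 635 to 1346 CPM over the mice. Of 6 markers of the habenula, which borders the thalamus, 2 passed the filter. These were Nwd2 at 57.3 to 84.6 CPM and Tac2 at 0.215 to 1.71 CPM, the summed level of the 6 was 58.7 to 86.7 CPM, and the defining factor Pou4f1 reached at most 0.0907 CPM.

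In GRCm38, Tcf7l2 spans chr19:55741820-55933654, Plcb4 chr2:135659011-136014593, Rora chr9:68653786-69388246, Rorb chr19:18930605-19111196 and Prkcd chr14:30595354-30626210. Tnnt1 lies at chr7:4504570-4516382, Ramp3 at chr11:6658521-6677475, Synpo2 at chr3:123076519-123236149, Zic1 at chr9:91358058-91365810 and Lef1 at chr3:131110471-131224356. An annotated gene on the same strand overlaps Tcf7l2 (Ppnr), Plcb4 (Gm14209), Synpo2 (Gm43287, Gm43288 and Gm43283) and Lef1 (Gm42449), so reads there could be split, while Prkcd, Rorb and Tnnt1 overlap none.

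All 10 genes were detected in every mouse, and 9 of them varied several-fold while Rorb hardly did. Compared per length, as CPM per kilobase of annotated exon (RPKM), the median level was highest for Rora at 7.35, followed by Prkcd at 5.15, Plcb4 at 3.93, Rorb at 3.46, Ramp3 at 2.94, Tnnt1 at 2.29, Zic1 at 2.12, Synpo2 at 0.869, Tcf7l2 at 0.660 and Lef1 at 0.484. The spread followed another order. Tnnt1 was 28.8 times higher in its highest than in its lowest mouse, Tcf7l2 19.9 times, Prkcd 14.5 times, Synpo2 10.2 times, Zic1 8.77 times, Ramp3 8.26 times and Lef1 8.17 times. For Rora the ratio was 4.57, for Plcb4 4.06 and for Rorb 1.56.

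The same mice stood at the ends for most of the genes. EE SUS mouse 8 and EE RES mouse 6 were each among the 5 highest mice for 10 of 10 genes, and EE SUS mice 1 and 6 for 9 of 10. At the other end, EE RES mouse 7 was among the 5 lowest for 10 of 10 genes and SH control mouse 3 for 9 of 10. Of these 4 highest mice, 3 were EE SUS mice and 1 was an EE RES mouse, and another EE RES mouse stood at the bottom.

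Tcf7l2, with 29 to 538 counts per mouse, is the gene against which the others were set. Its lowest, median and highest levels were 1.24, 7.01 and 14.4 CPM in SH control, 3.96, 5.53 and 11.6 CPM in SH RES, and 2.07, 7.19 and 14.2 CPM in SH SUS mice. In EE they were 2.21, 3.90 and 11.6 CPM in control, 1.32, 5.30 and 21.9 CPM in RES, and 3.92, 9.16 and 24.6 CPM in SUS mice. The medians ran from EE SUS through SH SUS, SH control, SH RES and EE RES down to EE control, and every group's range overlapped that of its neighbours in this order.

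Plcb4 had the same top group on a higher floor. Its lowest, median and highest levels were 24.1, 34.4 and 61.0 CPM in SH control, 26.7, 29.8 and 57.4 CPM in SH RES, and 22.9, 34.4 and 76.5 CPM in SH SUS mice. In EE they were 24.4, 28.6 and 44.6 CPM in control, 23.0, 38.3 and 89.7 CPM in RES, and 31.3, 52.1 and 92.7 CPM in SUS mice. No mouse fell below 22.9 CPM, and 5 of 9 EE SUS mice lay above every EE control mouse.

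Rora gave lowest, median and highest levels of 61.0, 105 and 184 CPM in SH control, 81.7, 95.6 and 153 CPM in SH RES, and 64.2, 97.8 and 187 CPM in SH SUS mice. The EE values were 64.4, 76.7 and 124 CPM in control, 61.3, 96.0 and 279 CPM in RES, and 79.2, 145 and 248 CPM in SUS mice. As for Plcb4, the EE SUS median was the highest, the EE control median the lowest, and the groups overlapped.

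Prkcd, whose protein is a textbook marker of sensory thalamic nuclei, ranged more widely. It had lowest, median and highest levels of 10.6, 24.5 and 76.9 CPM in SH control, 16.3, 24.1 and 68.7 CPM in SH RES, and 13.4, 33.0 and 107 CPM in SH SUS mice. Its levels in EE were 12.2, 17.1 and 42.2 CPM in control, 10.9, 33.8 and 154 CPM in RES, and 23.5, 65.0 and 144 CPM in SUS mice. A total of 6 of 9 EE SUS mice were above every EE control mouse.

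Rorb stayed within a narrow band, from a lowest value of 32.8 CPM in an EE RES mouse to a highest of 51.3 CPM in another EE RES mouse. Its group medians lay between 36.8 CPM in EE RES and 41.7 CPM in EE SUS mice. The group ranges of Rorb overlapped throughout. For Tnnt1 the medians ran from 2.22 CPM in EE control to 13.1 CPM in EE SUS mice, for Ramp3 from 2.56 to 7.53 CPM, for Synpo2 from 8.85 to 20.3 CPM, for Zic1 from 8.97 to 23.3 CPM and for Lef1 from 3.49 to 5.60 CPM, with EE control lowest and EE SUS highest each time.

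**Figure D1:**
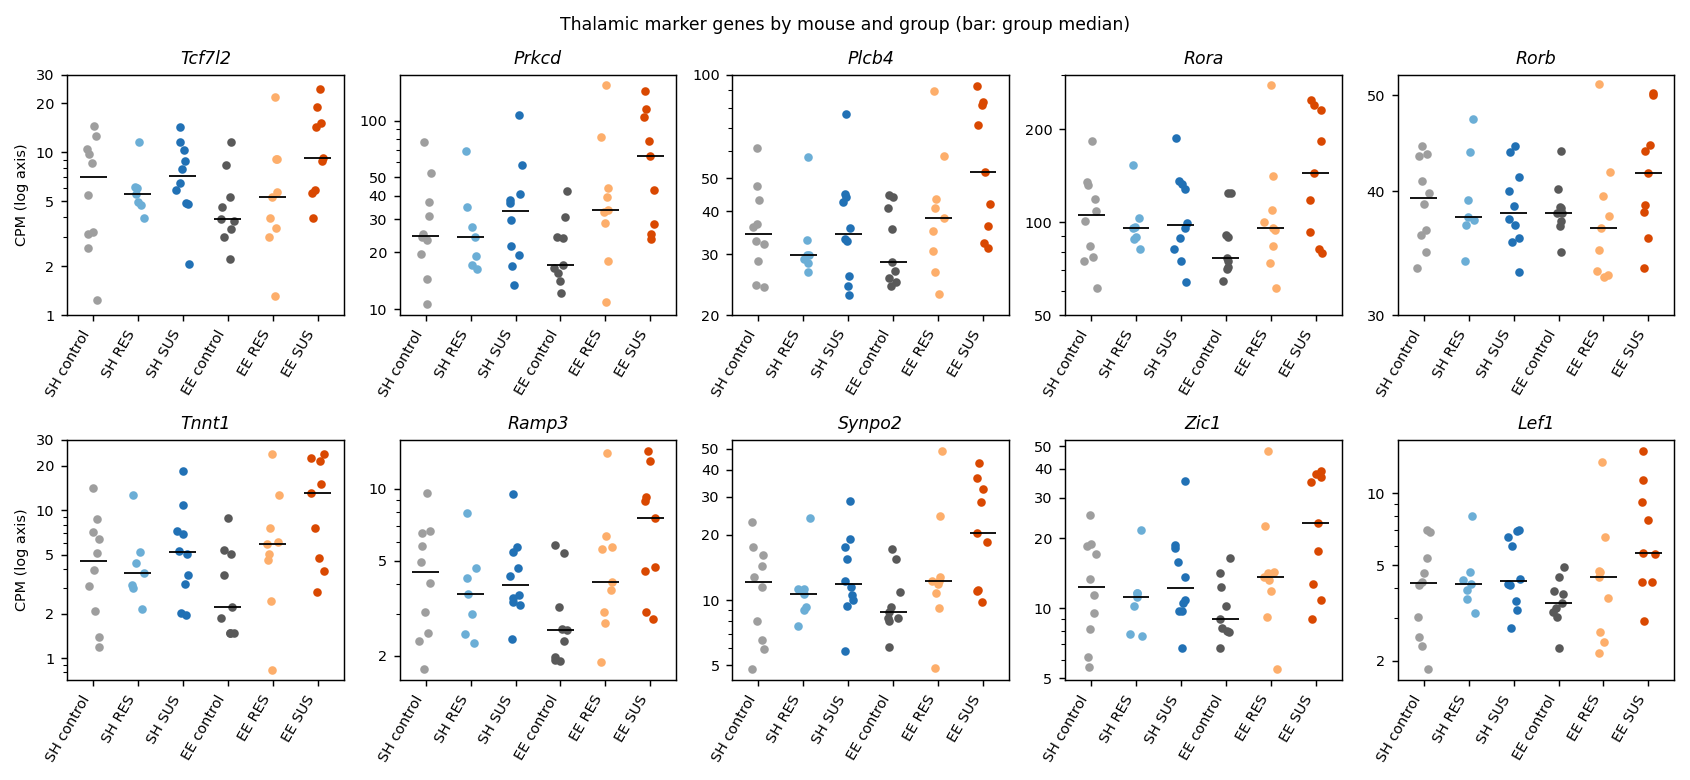
CPM of the 10 genes on log axes, 1 point per mouse in the 6 groups, with a bar at the group median. The EE SUS median is the highest of the 6 for every gene, with Tcf7l2 at 9.16 CPM against 3.90 CPM in EE control mice, and 1 EE RES mouse stands at the top of its group for every gene.

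The levels of the other 9 genes rose with that of Tcf7l2. In a quasi-likelihood fit of edgeR across 18282 genes with a term for each group, 9 of 9 had a positive slope on log2 Tcf7l2 at an adjusted p below 0.05, against 3.7% of all genes tested. The steepest slope, in log2 units per log2 unit of Tcf7l2, was that of Tnnt1 at 1.09 (SE 0.09), followed by Prkcd at 0.86 (SE 0.08), Synpo2 at 0.76 (SE 0.04), Ramp3 at 0.74 (SE 0.05), Zic1 at 0.73 (SE 0.05) and Lef1 at 0.64 (SE 0.04). Rora at 0.52 (SE 0.03) and Plcb4 at 0.48 (SE 0.04) moved about as much as each other. Rorb moved least, at 0.12 (SE 0.02), with an adjusted p of 5.25e-06 in the same edgeR fit. As these genes were chosen as markers of 1 tissue with earlier results of these mice known, their shared direction is a description of the set.

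Pearson's r of log2 CPM with Tcf7l2 over the 54 mice was 0.93 for Rora and Synpo2, 0.91 for Zic1 and Lef1, 0.89 for Ramp3, 0.88 for Tnnt1, 0.85 for Plcb4, 0.84 for Prkcd and 0.68 for Rorb. Spearman's rho ran from 0.62 for Rorb to 0.95 for Rora. Each r and rho had a permutation p of 1e-05, the smallest that 100000 resamples can give, and the adjusted values over all genes are those of the slopes. The largest gap between neighbours in log2 Tcf7l2 was 0.62 in a range of 4.22, and whether the mice fell into clusters was not tested. Without SH control mouse 3 and EE SUS mouse 8, the 2 farthest from the median, r was 0.92 for Rora, 0.84 for Plcb4 and 0.65 for Rorb.

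Within each of the 6 groups r was positive for all 9 genes. For Plcb4, r ranged from 0.70 in EE control to 0.97 in EE SUS mice, and for Rora from 0.89 in SH SUS to 0.97 in EE SUS mice. Rorb ranged from 0.41 in EE control to 0.92 in EE SUS mice. After centering on the group means, r between any pair of the 9 genes other than Rorb lay between 0.84 for Tnnt1 with Lef1 and 0.97 for Synpo2 with Zic1 over 36 pairs, and Rorb reached 0.52 with Prkcd to 0.70 with Rora. All points share their libraries, and Tcf7l2 itself had an r of -0.28 with total gene counts and 0.28 with the share of read pairs outside genes, and of -0.36 with the share of multimapping read pairs. The part of these in the relation was not tested.

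On the linear scale the genes differed by degrees in how much remained as Tcf7l2 approached 0. A straight line of CPM on Tcf7l2 CPM met 0 Tcf7l2 at 34.3 CPM (SE 0.757) for Rorb, which was 89.5% of its median. For Plcb4 the line met it at 16.7 CPM (SE 1.89), 47.2% of its median, and for Rora at 43.1 CPM (SE 3.91), 44.9% of its median. These 3 genes thus kept a sizeable fitted level in dentate punches with the least Tcf7l2.

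The other 6 kept less. The fitted remainder was 1.25 CPM (SE 0.236) for Lef1, or 29.3% of its median. It was 2.32 CPM (SE 0.969) for Zic1, 0.751 CPM (SE 0.299) for Ramp3 and 1.85 CPM (SE 0.887) for Synpo2, or 19.2%, 18.5% and 16.3% of the medians. Prkcd at -1.39 CPM (SE 4.37) and Tnnt1 at -1.10 CPM (SE 0.731) met 0 within 2 SE. These are extrapolations below the lowest Tcf7l2 level of 1.24 CPM, given as descriptions with no test, and counting error in Tcf7l2 was not modelled. Tcf7l2 is also expressed in some glial cells, so a fitted remainder is not a measure of expression outside the thalamus.

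**Figure D2:**
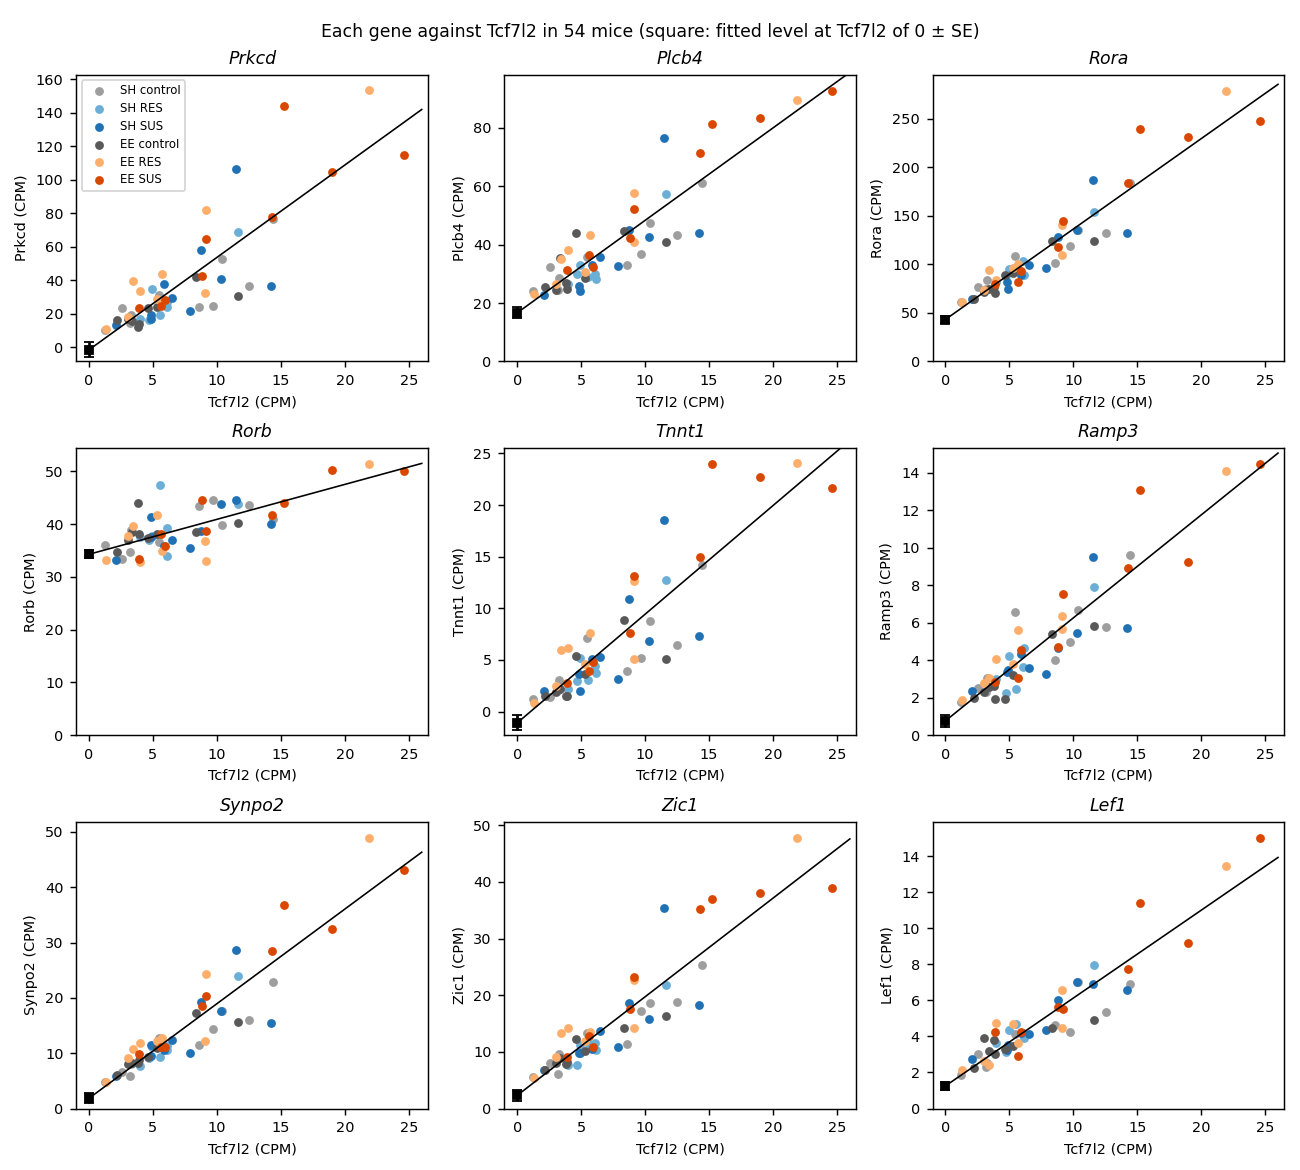
CPM of 9 genes against CPM of Tcf7l2, 1 point per mouse colored by group, with a straight line over 54 mice and a square with its SE at a Tcf7l2 of 0. Rorb, Plcb4 and Rora start at 34.3, 16.7 and 43.1 CPM, whereas Prkcd and Tnnt1 start near 0.

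Prkcd and Tcf7l2 did not keep 1 ratio. Prkcd was 2.56 times Tcf7l2 in CPM in SH SUS mouse 6 and 11.5 times in EE RES mouse 3, with a median of 5.10 over 54 mice. By group, the median ratio was 5.19 in SH control, 4.33 in SH RES, 4.27 in SH SUS, 4.60 in EE control, 7.69 in EE RES and 5.46 in EE SUS mice, and all ranges overlapped. Over the mice, the log2 ratio had an r of 0.60 with the score of CA3 pyramidal cell markers, 0.51 with that of mature oligodendrocyte markers and -0.50 with that of dentate granule cell markers. The part of these cell types in the ratio was not tested.

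Other genes also followed Tcf7l2. By the group-centered r with Tcf7l2 over 54 mice, the nearest 10 were Zfhx3 at 0.98, Vipr2 and Rnf152 at 0.97, Cit, Grid2ip and Gm43398 at 0.96, Foxp2 at 0.94, Fign and Grm4 at 0.93, and Plekhg1 at 0.92. Among 18282 genes, Synpo2 ranked 9, Rora 12, Zic1 16, Lef1 23, Ramp3 25, Tnnt1 32, Plcb4 41, Prkcd 45 and Rorb 150 in likeness to Tcf7l2. The 5 nearest to Plcb4 were Plekhg1 at 0.96, Rims3, Amotl1 and Patj at 0.95, and Rab37 at 0.94. The 5 nearest to Rora were Plekhg1 at 0.99, Amotl1 at 0.97, and Rnf152, Ntng1 and Rims3 at 0.96. Plekhg1, Amotl1 and Rims3 were on both of these last lists.

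A further list of 12 thalamic genes held none of the 10, and was also chosen with earlier results of these mice known. Its genes Vipr2, Plekhg1, Amotl1 and Ntng1 are among the nearest genes named above. Of the 12, 10 had a positive slope on Tcf7l2 at an adjusted p below 0.05 in edgeR, against 3.7% of all genes tested. A negative slope passed for 0, and the median slope was 0.44. This count describes the list and is not a separate check. Vipr2, a receptor for vasoactive intestinal peptide, had a slope of 1.12 (SE 0.04), and Gbx2, a homeobox factor of the developing thalamus, 1.24 (SE 0.09). Slc17a6 had 0.86 (SE 0.06) and ranged from 3.89 to 64.6 CPM. Lhx9 at 0.01 (SE 0.02, adjusted p 0.713) and Calb2, the calcium-binding calretinin, at 0.09 (SE 0.06, adjusted p 0.424) did not pass in edgeR.

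The mean z score of these 12 genes had an r of 0.92 to 0.97 with 9 of the genes and 0.68 with Rorb. With the habenula score, which held only Nwd2 and Tac2, r lay between -0.11 and 0.04. From these genes alone the score cannot show how habenula tissue varied between punches. Dentate granule cell markers gave -0.41 with Plcb4, -0.25 with Rora, -0.09 with Tcf7l2 and -0.03 with Rorb. Mature oligodendrocyte markers gave 0.59 with Plcb4, 0.42 with Rora and 0.22 with both Tcf7l2 and Rorb, and CA3 pyramidal cell markers 0.51 with Prkcd, 0.45 with Plcb4 and 0.18 with Tcf7l2. Rorb differed from the others in sign with astrocyte markers, at 0.31 against -0.35 to -0.22, and was at 0.45 with smooth muscle markers. These are descriptions over mice that share libraries.

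In the slope fit, 0 of 8 dentate granule cell, 0 of 6 CA3, 0 of 5 CA1, 0 of 6 astrocyte, 0 of 6 mature oligodendrocyte, 0 of 4 newly formed oligodendrocyte, 0 of 8 meningeal fibroblast, 0 of 5 smooth muscle, 0 of 6 endothelial and 0 of 2 tested habenula markers passed in edgeR at an adjusted p below 0.05. Of the choroid plexus markers, 6 of 7 had a negative slope at that threshold, against 0.886% of all genes, with adjusted p-values of 0.021 to 0.037 in edgeR. Ttr, the transthyretin gene, was at -1.91 (SE 0.52), with a median of 0.305 CPM and a range of 0 to 872 CPM. The summed level of the choroid plexus list ran from 19.5 to 996 CPM, with a median of 24.0 CPM. Over the mice without group terms, r with Tcf7l2 was -0.09 for Ttr and ran from -0.33 for Kl to 0.01 for Clic6 among these 6. Over all genes, 162 negative slopes passed in edgeR. That count was 26 with a term for replicate number, and 86 without the 2 mice farthest from the median of Tcf7l2. Gad1 among 7 GABA neuron markers, at -0.04 (SE 0.01), and Tmem119 among 6 microglia markers, at -0.07 (SE 0.02), also had negative slopes in edgeR.

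**Figure D3:**
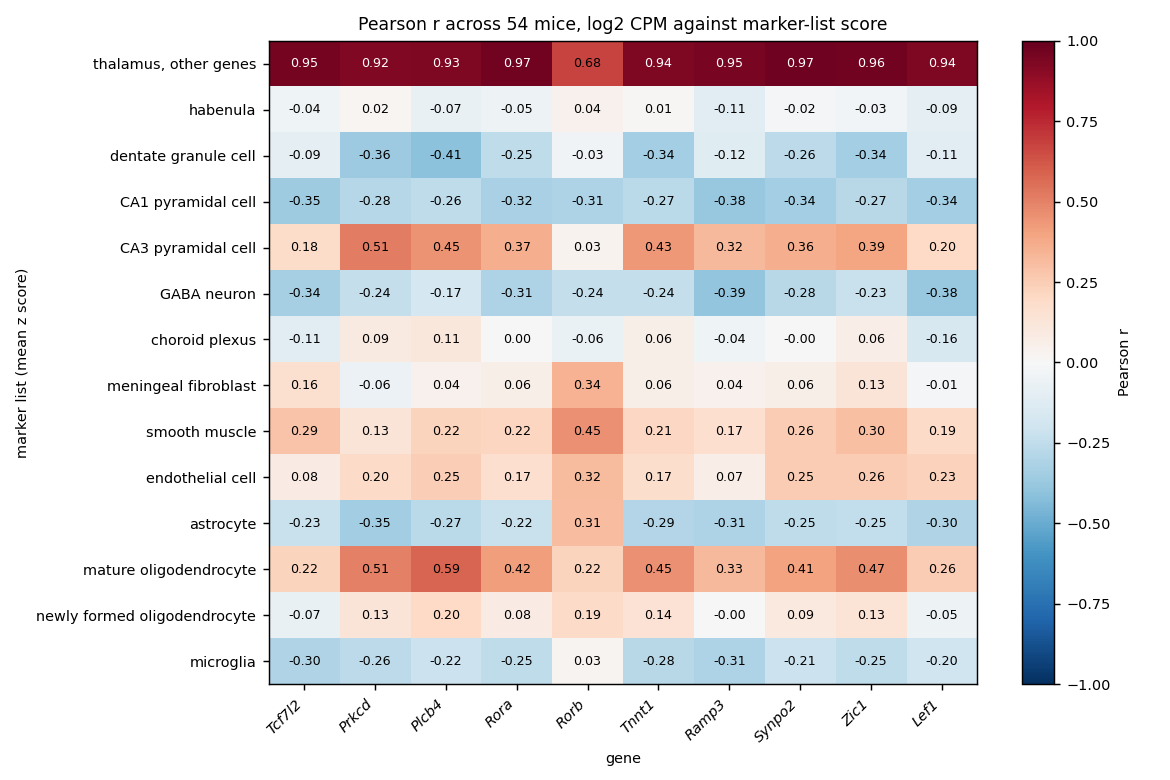
Pearson r over 54 mice between log2 CPM of each gene (columns) and the mean z score of each marker list (rows), colored from -1 to 1. The row of the 12 other thalamic genes is at 0.92 or more for 9 genes and 0.68 for Rorb, and Plcb4 has 0.59 with mature oligodendrocyte markers.

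The study looked for gene expression shared by mouse models of stress, and its CSDS mice allow SUS, RES and control mice to be compared in both housings. None of the 10 genes differed between groups at an adjusted p below 0.05 in any of 10 comparisons by edgeR. For SUS against RES mice, 0 of 10 passed in SH and 0 of 10 in EE, where 0% of the 17991 genes tested passed in either housing. In EE all 10 were higher in SUS mice, by a median log2 fold change of 0.52 against 0.00 over all genes, and in SH 9 of 10 were, by a median of 0.23. At an unadjusted p below 0.05, edgeR called 0 of the 10 genes in each housing, against 5.08% of all genes in SH and 3.53% in EE.

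Tcf7l2 had the largest difference in EE, with 11.8 ± 6.94 CPM in SUS and 6.98 ± 6.18 CPM in RES mice (mean ± SD, n = 9 each). Its log2 fold change was 0.75 (SE 0.39), and 8 of 9 SUS mice were above the RES median. Tnnt1 differed by 0.73 (SE 0.48), Lef1 by 0.55 (SE 0.31), Zic1 by 0.54 (SE 0.35), Ramp3 by 0.52 (SE 0.34), Synpo2 by 0.52 (SE 0.36), Prkcd by 0.50 (SE 0.45), Rora by 0.45 (SE 0.27), Plcb4 by 0.44 (SE 0.26) and Rorb by 0.14 (SE 0.08). Every adjusted p in EE was 0.999 by edgeR. In SH the changes ran from -0.03 (SE 0.09) for Rorb to 0.43 (SE 0.56) for Tnnt1, with Tcf7l2 at 0.34 (SE 0.43), and adjusted p-values of 0.939 to 0.980.

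The difference in EE between SUS and RES mice exceeded that in SH for 10 of 10 genes, by 0.13 for Prkcd to 0.44 for Lef1 on the log2 scale. This interaction passed for 0 of 10 genes in edgeR, with 0% of all genes, and its smallest adjusted p was 0.984. With the score of 12 other thalamic genes as a term, the sign turned for most, with 2 of 10 higher, a median of -0.17, and values from -0.45 for Prkcd to 0.07 for Rorb. By construction this term removes what the genes share with the list, so the turn cannot decide whether the response differed by housing. As the interaction passed for 0 of 10 genes, a larger response in one housing was not shown.

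By the criterion of the study, an unadjusted p below 0.05 in limma-voom with a fold change above 1.3, 2 of 10 genes were higher in EE SUS than in EE RES mice, Tcf7l2 and Lef1, against 0.461% of all genes in that direction. In SH 0 of 10 met it, against 0.667%. The count in EE depended on single mice. It was 9 without EE RES mouse 6, 8 without EE SUS mouse 3 or 7, and 7 without EE RES mouse 8 or EE SUS mouse 9. It was 0 without EE RES mouse 7 or EE SUS mouse 8, and 1 without EE RES mouse 3, 4 or 5 or EE SUS mouse 1, 5 or 6. Several of the genes are in the DEG list that the study made on these mice, so this count is not independent evidence of a direction. The calls were not the same, as the paper names Plcb4 as upregulated in EE SUS mice. Here Plcb4 missed the criterion, with an unadjusted p of 0.069 in limma-voom.

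Against the unstressed mice of their housing, EE SUS mice had the largest median difference of the 10 comparisons, a log2 of 1.21 over the 10 genes. The fold changes were 3.70 for Tnnt1 (log2 1.89, SE 0.50), 3.19 for Prkcd (log2 1.67, SE 0.43), 2.49 for Ramp3, 2.40 for Zic1, 2.33 for Tcf7l2 (log2 1.22, SE 0.41), 2.30 for Synpo2, 2.05 for Lef1, 1.80 for Rora (log2 0.85, SE 0.25), 1.77 for Plcb4 (log2 0.82, SE 0.24) and 1.09 for Rorb. Of the 10 genes, 0 passed the adjusted threshold in edgeR, with adjusted p-values from 0.234 for Prkcd to 0.708 for Rorb, and 0% of 18283 genes passed. All genes but Rorb had an unadjusted p below 0.05 and were higher in SUS, 9 of 10, against 4.46% of all genes. These 9 varied together across mice, with a group-centered r of 0.84 to 0.97 between pairs, so they are not 9 separate observations. For 8 of these 9, every EE SUS mouse lay above the EE control median, and for Lef1 8 of 9 did. Of the 12 other thalamic genes, 0 passed and 11 were higher, by a median log2 of 0.66.

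Medians of summed marker levels of other cells also differed between these groups, although no marker list was tested between groups. The summed level of 6 mature oligodendrocyte markers had a median of 1733 CPM (1227 to 2151) in EE SUS and 1331 CPM (989 to 2041) in EE control mice, and that of 6 CA3 pyramidal cell markers 402 CPM (353 to 465) against 332 CPM (288 to 397). For 8 dentate granule cell markers it was 924 CPM (782 to 1167) against 1065 CPM (635 to 1346). The EE RES medians were 1449, 379 and 968 CPM, between the other EE groups in each of these lists. For astrocyte markers the medians were 4308 CPM in EE SUS, 4140 CPM in EE RES and 4643 CPM in EE control mice. In the same order, endothelial markers gave 169, 163 and 155 CPM, and CA1 pyramidal cell markers 114, 170 and 128 CPM. All ranges overlapped, and the part of these cell types in the differences of the 10 genes was not tested.

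For 9 of the 10 genes, EE RES mice were fitted between the other EE groups. Against EE control mice, Prkcd was higher by a log2 of 1.18 (SE 0.43), Tnnt1 by 1.16 (SE 0.52) and Tcf7l2 by 0.47 (SE 0.42), and Rorb differed by -0.02 (SE 0.07). In edgeR 0 of 10 passed, with 0% of all genes and a smallest adjusted p of 0.581. At an unadjusted p below 0.05 in edgeR, 4 of 10 were higher in EE RES mice, against 7.73% of all genes in either direction. Without EE RES mouse 6, the log2 differences were 0.73 for Prkcd, 0.71 for Tnnt1 and 0.02 for Tcf7l2. In SH the changes against control mice lay between -0.23 and 0.11 for RES and between -0.03 and 0.31 for SUS mice. They passed for 0 of 10 genes in edgeR, where 0% and 0.0328% of all genes passed.

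The housing comparisons pointed both ways. In control mice all 10 genes were lower in EE than in SH, by 0.03 for Rorb to 0.62 for Ramp3 on the log2 scale, with Tcf7l2 at -0.48 (SE 0.42). In SUS mice all 10 were higher in EE, with Tnnt1 at 0.97 (SE 0.46), Tcf7l2 at 0.62 (SE 0.39) and Plcb4 at 0.60 (SE 0.23), and 8 of 10 had an unadjusted p below 0.05 in edgeR, against 4% of all genes that were higher in EE at that threshold. In RES mice 9 of 10 were higher in EE, by a median of 0.38. By edgeR 0 of 10 passed in control, RES or SUS mice, where 0.00547%, 0.246% and 0% of all genes passed, with smallest adjusted p-values of 0.988, 0.432 and 0.566. These comparisons share groups with those above, and the 10 genes are not independent of each other.

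With the mean z score of the 12 other thalamic genes as a term in the fit, the differences of EE SUS mice from EE RES and EE control mice became smaller. In EE, SUS against RES then lay between -0.23 for Prkcd and 0.11 for Tcf7l2 on the log2 scale, with Plcb4 at -0.05 and Rora at -0.04. SUS against control in EE lay between -0.13 for Tcf7l2 and 0.30 for Prkcd, with Tnnt1 at 0.24, Rora at 0.04 and Plcb4 at 0.06, and 0 of 10 genes had an unadjusted p below 0.05 in edgeR in either comparison, against 3.51% and 5.48% of all genes. In other comparisons some differences also became smaller, but so did their SEs. For EE against SH in RES mice, Prkcd went from 0.74 (SE 0.46) to 0.43 (SE 0.18) and Zic1 from 0.54 (SE 0.36) to 0.29 (SE 0.10). Plcb4 went from 0.36 (SE 0.26) to 0.23 (SE 0.10) and Synpo2 from 0.47 (SE 0.37) to 0.20 (SE 0.09). These 4 of 10 genes had an unadjusted p below 0.05 in edgeR, against 0 without the term and 16.4% of all genes with it. In control mice Ramp3 went from -0.62 (SE 0.35) to -0.34 (SE 0.11) and Rora from -0.30 (SE 0.24) to -0.14 (SE 0.06). Both were below that threshold with the term, 2 of 10 against 5.36% of all genes. For EE RES against control mice, Prkcd went from 1.18 (SE 0.43) to 0.47 (SE 0.18) and Ramp3 from 0.79 (SE 0.35) to 0.27 (SE 0.11). These were 2 of 10 against 8.02% with the term, and 4 of 10 against 7.73% without it. Zic1 was the 1 gene below that threshold for SUS against RES in SH at 0.23 (SE 0.10), for the interaction and for RES against control in SH at -0.20 (SE 0.10), against 5.4%, 6.85% and 3.58% of all genes. Tcf7l2 was the 1 gene in EE against SH SUS mice, at -0.28 (SE 0.11), against 6.54%, and SUS against control in SH had 0, against 2.76%. None of the 10 passed an adjusted p of 0.05 with the term in edgeR. The score was measured in the same punches as the 10 genes, so a change shared by thalamic genes and a change in the tissue captured cannot be told apart by this term.

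**Figure D4:**
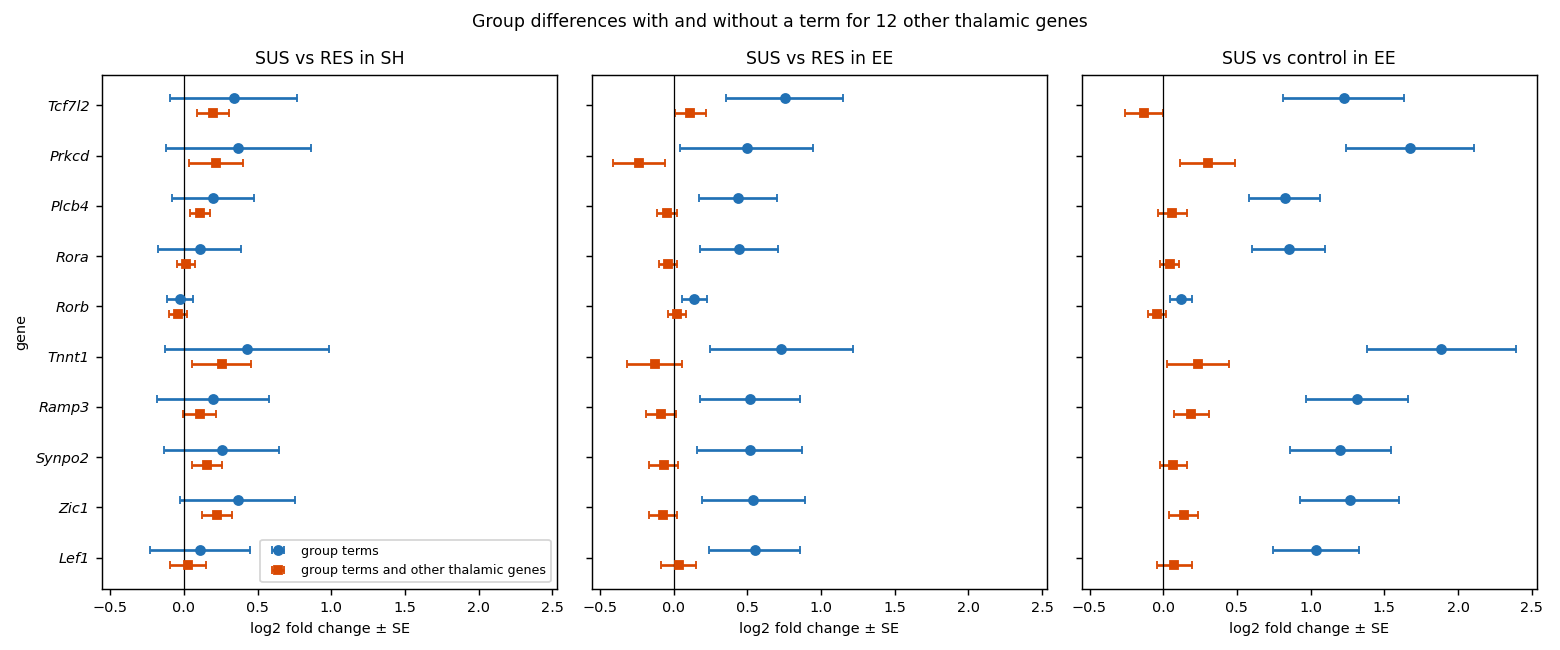
Log2 fold change ± SE of the 10 genes for SUS against RES mice in SH, SUS against RES mice in EE and SUS against control mice in EE, from a fit with group terms (circles) and with the score of 12 other thalamic genes added (squares). Tnnt1 in EE SUS against control mice is at 1.89 without and 0.24 with the added term.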

How the data were processed

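The authors made stranded total RNA libraries from punches of single mice, removed poor reads and mapped what was left to GRCm38 (mm10). The submitters' processing notes name STAR and Picard, and the deposited tables hold raw read-pair counts per gene in the layout of STAR, although the methods name featureCounts; versions are not given in the sources used here. Reverse-strand counts were used, since forward-strand counts came to 3.51 to 4.13%. Unmapped (13.9 to 19.9%), multimapping (8.70 to 12.1%), unassigned (19.9 to 28.8%) and ambiguous (0.836 to 1.12%) read pairs did not count toward library sizes. Of 45318 identifiers, 44671 matched the annotation. The 2 runs of EE control mouse 9 had an r of 0.998 and were counted as 1 mouse.

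Genes were filtered with filterByExpr at a minimum count of 10, scaled by TMM and tested with the quasi-likelihood test of edgeR 4.0.16 in R 4.3.3 with Benjamini-Hochberg adjustment over all genes, on the 35 defeated mice (17991 genes) for SUS against RES and on the 54 mice otherwise. The SE of an edgeR fold change or slope is its absolute value divided by the square root of the quasi-likelihood F statistic. The criterion of the study used limma 3.58.1. Correlations used log2 CPM with a prior count of 2. DESeq2 1.42.0, RLE size factors, other filters, unstranded counts, the replicate number, the score of 12 other thalamic genes and each mouse left out were the alternatives. Python 3.11.15, pandas 2.3.3, NumPy 2.4.6 and SciPy 1.17.1 gave correlations with 100000 resamples, and matplotlib 3.10.9 the plots. The fits were tested on simulated counts. Counting error is largest where counts are few, as for Tcf7l2 with 29 counts in its lowest mouse.

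The 10 genes and the marker lists were chosen with earlier results of these data known. Named genes are these 10, genes of the marker lists, and the 10 genes nearest to Tcf7l2 and 5 nearest to Plcb4 and Rora by group-centered r. The RES and SUS classes follow from behavior.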

Additional observations from a re-analysis of the deposited data

Results flagged for a closer look

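Of 60 sets of values (10 genes in 6 groups), 22 had a highest mouse separated from the rest of its group by more than Dixon's 95% limit. For normally distributed values chance exceeds it in about 1 of 20 groups. The limit was applied to CPM without log, where a long upper tail makes this more frequent, and the 10 genes are not independent of each other. These 22 values came from 3 mice. EE RES mouse 6 stood apart for Tcf7l2 (21.9 CPM, next mouse 9.13), Prkcd (154, next 82.0), Rora (279, next 141), Rorb (51.3, next 41.8), Tnnt1 (24.1, next 12.6), Ramp3 (14.1, next 6.35), Synpo2 (48.9, next 24.3), Zic1 (47.8, next 22.7) and Lef1 (13.5, next 6.58). SH RES mouse 4 stood apart for Tcf7l2 (11.6 CPM, next 6.12), Prkcd (68.7, next 34.7), Plcb4 (57.4, next 33.1), Rora (153, next 103), Tnnt1 (12.7, next 5.21), Ramp3 (7.93, next 4.66), Synpo2 (24.0, next 11.3), Zic1 (21.8, next 11.6) and Lef1 (7.98, next 4.70). SH SUS mouse 3 stood apart for Prkcd (107 CPM, next 58.1), Plcb4 (76.5, next 44.9), Ramp3 (9.51, next 5.70) and Zic1 (35.3, next 18.7), but not for Tcf7l2. What sets these mice apart was not tested.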

How the results depend on the processing

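The count of the 10 genes passing an adjusted p of 0.05 was 0 in all 10 group comparisons, and 9 of 9 for the slope on Tcf7l2, under every alternative run for them, the replicate block and each mouse left out included. The correlation had a permutation p below 0.05 for 9 of 9 genes under its 4 alternatives (group-centered values, CPM without log, unstranded counts, and without the 2 farthest mice). Correlation showed little pairing of the mice by replicate number. Same-numbered mice of different groups had a median r of 0.04 (126 pairs), and 7 of 54 mice correlated best with their own number. The block left the criterion count in EE at 2. Over all genes it changed some counts at an adjusted p below 0.05 in edgeR. EE against SH in RES mice went from 45 to 201 genes, and the slope on Tcf7l2 from 838 to 369. Other structure by replicate number was not tested.

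By the criterion of the study, the count for SUS against RES in EE was 2, but 0 with p-values from edgeR, 5 with the 6 groups in 1 fit, and 0 to 9 with 1 mouse left out. In SH it stayed at 0. The cause was not tested.

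With the score of 12 other thalamic genes as a term, SUS against RES in EE changed sign for Prkcd (-0.23), Plcb4 (-0.047), Rora (-0.036), Tnnt1 (-0.13), Ramp3 (-0.084), Synpo2 (-0.066) and Zic1 (-0.071). So did SUS against control in EE for Tcf7l2 (-0.13) and Rorb (-0.045), RES against control in EE for Tcf7l2 (-0.22), EE against SH in SUS mice for Tcf7l2 (-0.28) and Tnnt1 (-0.036), EE against SH in control mice for Rorb (0.0051), and the interaction for Prkcd (-0.45). By construction, this term removes what the 10 genes share with the list. With 1 mouse left out, Rorb for SUS against RES in SH ran from -0.062 to 0.020, Rorb for RES against control in EE from -0.086 to 0.0064, Prkcd in the interaction from -0.22 without SH RES mouse 4 to 0.57 without EE RES mouse 6, and Tcf7l2 for SUS against RES in EE from 0.54 without EE SUS mouse 8 to 1.20 without EE RES mouse 6.

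The linear remainder at a Tcf7l2 of 0 was also computed without the 2 mice farthest from the median, chosen after seeing the data, and moved by less than 1 SE, to 16.2 CPM for Plcb4, 40.1 CPM for Rora and 34.1 CPM for Rorb. For Zic1 at 1.59 CPM (SE 1.04) and Synpo2 at 1.71 CPM (SE 0.986) it then also met 0 within 2 SE.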
